A study of Mus musculus with 12 samples.

Results

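Splenic dendritic cells (DCs) of alymphoplasia (aly) mice were compared before and after LPS combined with an agonistic antibody against CD40, over the 3 arrays of untreated and the 3 arrays of treated aly DCs, which are 6 of the study's 12 arrays. They were chosen by the genotype and treatment of the labels. The untreated aly group held DCs of aly mice that received nothing. The treated aly group held DCs of aly mice taken 6 hours after an injection into the peritoneum of LPS, at 25 micrograms, with the antibody, at 100 micrograms. The 6 remaining arrays hold DCs of littermates heterozygous for the mutation (wild type, WT, in what follows), left untreated or given the same agents, with 3 arrays in each group. Each array stands for a pool of DCs of 3 mice, enriched with CD11c beads, sorted by flow cytometry and amplified in 2 rounds, so p-values measure the spread between pools and not between single mice. The controls carry 1 aly allele, the mutation is in every cell of the mouse and not in DCs alone, and the labels give no strain, age or sex of the mice.

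The aly mutation lies in Map3k14, the gene of the NF-kB-inducing kinase NIK. When CD40 or a related receptor is engaged, NIK accumulates and activates IKK-alpha, p100 (Nfkb2) is processed to p52, and p52 enters the nucleus with RelB; this is the non-canonical NF-kB pathway. LPS acts through the receptor TLR4 on the canonical NF-kB pathway, which does not need NIK, and on interferon regulatory factors, which start a wave of type I interferon and interferon-stimulated genes. Activated DCs lose phagocytic functions, display costimulatory molecules such as CD80, CD86 and CD40, and acquire the chemokine receptor CCR7, which guides them to T cell zones.

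Treated aly replicate 1 stood apart from every other array. Its 3' to 5' signal ratio of Actb, a measure of RNA degradation and short amplification products, was 55.8, against 1.39 to 5.92 on the 11 remaining arrays, and that of Gapdh was 45.7 against 4.58 to 20.7. Its hybridisation controls averaged an intensity of 24396 (1933 to 3739 elsewhere), the top 1% of its probe sets held 55.5% of its signal (29.4% to 37.4% elsewhere), and its best rank correlation with another array was 0.721 (0.899 to 0.944 elsewhere). Changes, differences and their calls are therefore given with all arrays and without this array; "without replicate 1" always means without treated aly replicate 1. DC genes were present on all aly arrays, but not evenly. Itgax, which encodes CD11c, read 2473, 2087 and 1771 on the untreated aly arrays and 229.7, 1408 and 2383 on the treated arrays, and Flt3, a receptor for a DC growth factor, read 1396, 1286 and 1027 and 267, 978 and 1287. Both were lowest on treated replicate 1. Other DC genes were not: within the arrays numbered replicate 1, H2-Aa and Cd74 changed by 1.28 and 0.98 (log2, treated minus untreated). The median of the 10 pan-DC markers there was -2.32. Their summed intensity was 77860 on treated replicate 1, against 37824 to 43589 on the untreated arrays and 30948 to 34208 on treated replicates 2 and 3. The 9 neutrophil markers were each highest on that array among the treated aly arrays. Their summed intensity there was 15664, against 470 to 1105.4 on treated replicates 2 and 3 and 288 to 3206.5 on the untreated arrays. The median over all probe sets was also highest there, at 53.4 against 23.3 and 26.7 on treated replicates 2 and 3. S100a9, a neutrophil calcium-binding protein, read 7325 there against 109 and 37.6 on the other treated arrays. The summed intensity of 16 red pulp macrophage markers was 47895 to 79466 on untreated aly arrays, 61926 on treated replicate 1 and 34781 to 50476 on treated replicates 2 and 3, against 3068 to 23505 on WT arrays. The part of these differences in the results below was not tested. Actb as a gene had a log2 change of 0.11 between treated and untreated aly DCs, and -0.57 without replicate 1. No marker of these lists was listed at 0 on an aly array.

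The treatment raised a limited set of genes in aly DCs. Of 15019 genes tested, 68 rose (0.453%) and 5 fell (0.0333%) at a Benjamini-Hochberg adjusted p under 0.05 in limma, and without replicate 1 the counts were 55 risen (0.366%) and 0 fallen (0%). The rises called both ways were 49, and they are the base of the account below. The same test called 744 rises (4.95%) and 714 falls (4.75%) in WT DCs. At an unadjusted p under 0.05 there were 835 higher and 1100 lower genes in aly, and 571 and 634 without replicate 1. All 68 risen genes had every treated array above every untreated array, an arrangement that 904 of all genes (6.02%) showed with all arrays and 1390 (9.25%) without replicate 1. Among the omissions of 1 array, the count of rises moved most with the untreated aly arrays: it was 19 without untreated replicate 1, 19 without replicate 2 and 13 without replicate 3. It was 38 without WT untreated replicate 1 and 41 without WT untreated replicate 3, arrays that enter through the shared estimate of the spread. The choice of fit also moved the calls. Of the 49, 6 were called from the 6 aly arrays alone, 11 with 1 in place of 16 added before the logarithm, 24 from replicates 2 and 3 of all groups alone, and 35 each with median centring and with the mean of all probe sets of a gene. The arrays numbered replicate 1 in all 4 groups read 4.69 to 17.7 on the poly-A spike-in controls, against 40.8 to 369 on the other arrays. With these sets as a block all 49 remained called and 112 genes rose in all, and with array weights 140 rose.

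**Figure D1:**
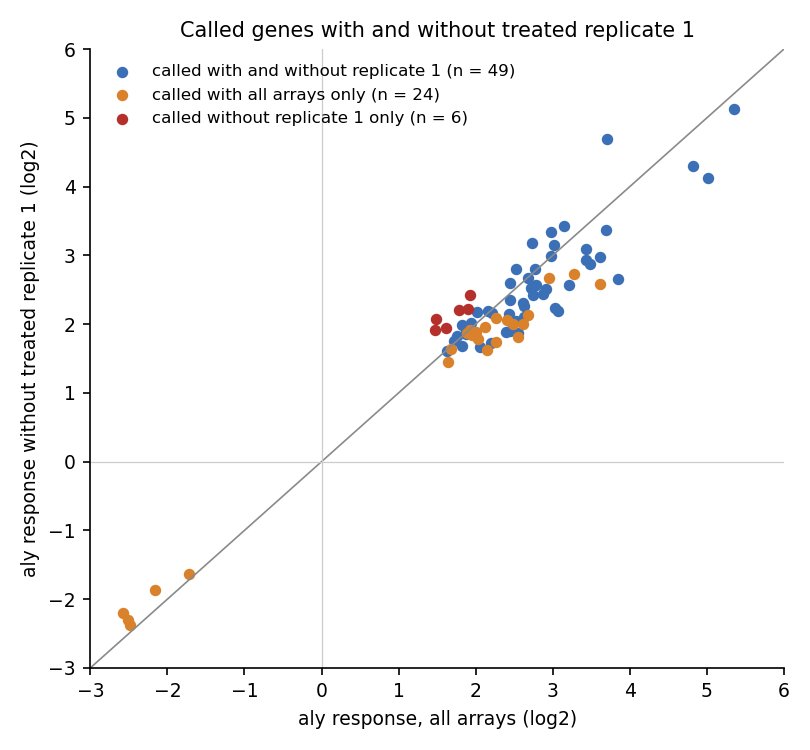
The log2 change (treated minus untreated aly DCs, n = 3 arrays per group) with all arrays on the x axis is set against the same change without treated aly replicate 1 on the y axis, 1 point per gene, with the genes called in either comparison coloured by how they were called. The 49 genes called both ways all lie above 0 on both axes, and most lie below the diagonal, as their median moves from 2.68 to 2.42.

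The 49 rises had a median of 6.42-fold (a median log2 change of 2.68, and 2.42 without replicate 1), and the 45 with an untreated mean above the 16 added to each value ranged from 3.09-fold to 32.4-fold (3.04-fold to 25.9-fold without replicate 1). Over all 15019 genes the median log2 change was -0.08, and -0.10 without replicate 1. All 49 were also called higher in WT DCs, where their median log2 change was 3.65. Treated replicate 1 was the highest of the treated aly arrays for 28 of them, the lowest for 11 and between the others for 10. For the 4 not among these 45 (1700011B04Rik, Il2ra, Sct and Slc27a3) the untreated aly mean lay under this offset of 16, so the size of their change depends on it. In WT the untreated mean lay under it for these 4, Sphk1 and Ramp3, so their WT changes and their differences from aly depend on it too. A gene's other probe sets bear on 25 of the 49: for 17 at least 1 of them had an aly log2 change of 1 or more, and for 8 none had. The 49 genes are described by their roles, a grouping made after their values were seen. Of 49, 13 belong to a list of pathway or marker genes and 36 to none.

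Rises that did not hang on any single array come first. 10 genes kept their call whichever 1 of the 12 arrays was omitted: Ccr7, Il1rn, Socs3, Il2ra, Ifitm1, Cnn3, Abtb2, Dnah2, 1700011B04Rik and 1110032F04Rik. Of these, Ccr7, Cnn3, Ifitm1 and 1700011B04Rik also kept it under all 12 of the other settings tried.

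Ccr7, the receptor that draws mature DCs towards lymphoid T cell zones, read 324, 261 and 242 on the untreated aly arrays and 5010.5, 2052 and 2941 on the treated arrays. The untreated arrays lay close together, and each treated array lay far above them. Its level rose 10.8-fold (log2 change 3.44 ± 0.38, SE, n = 3 per group, adjusted p = 0.00057), and 8.55-fold without replicate 1 (adjusted p = 0.000316). Treated WT DCs read 8069.7, 13305 and 12925, above all treated aly arrays. The aly response minus the WT response was -1.30 on the log2 scale (95% interval -2.44 to -0.15), and -1.64 without replicate 1 (-2.62 to -0.66), which did not pass adjustment over all genes (adjusted p = 0.566, and 0.124 without replicate 1).

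Socs3, a feedback inhibitor of cytokine receptor signalling, went from 122, 86 and 116 to 2613, 650.5 and 1324, with treated replicate 1 the highest and replicate 2 the lowest of the treated arrays. It rose 10.8-fold (log2 change 3.43 ± 0.46, adjusted p = 0.00245), and 7.67-fold without replicate 1 (adjusted p = 0.00209), and its 2 other probe sets gave log2 changes of 1.88 and 3.28. Il1rn encodes the interleukin-1 receptor antagonist, a secreted protein that blocks the interleukin-1 receptor. It read 32.9, 46.6 and 70.5 untreated and 367, 629 and 724 treated, here with treated replicate 1 the lowest of the treated arrays and still well above the untreated ones. Its rise was 8.84-fold (log2 change 3.14 ± 0.42, adjusted p = 0.00245), and 10.8-fold without replicate 1 (adjusted p = 0.000593). Its 2 other probe sets gave log2 changes of 1.33 and 1.53. Treated WT DCs read 4030.3, 2969.8 and 7926. The aly minus WT difference of the responses was -2.95 (95% interval -4.21 to -1.69), and -2.67 without replicate 1 (-3.83 to -1.50), with an adjusted p of 0.0659 with all arrays and 0.0347 without replicate 1.

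Il2ra, the alpha chain of the interleukin-2 receptor (CD25) that activated DCs display, read 19.7, 0.9 and 23.2 untreated and 235, 154 and 144 treated. The treated arrays were all above the untreated ones but far below the 1019, 1079.7 and 1498 of treated WT DCs. It rose 6.61-fold in aly (log2 change 2.72 ± 0.39, adjusted p = 0.00498; without replicate 1 2.52, adjusted p = 0.00801), against a log2 change of 5.95 in WT, and its other probe set gave 2.04. Of the 49 genes it alone passed the test of the difference between genotypes with all arrays (log2 difference -3.23 ± 0.56, 95% interval -4.40 to -2.05, adjusted p = 0.0364; -3.43 without replicate 1, adjusted p = 0.00635). With an offset of 1 in place of 16, neither its rise (adjusted p = 0.17) nor the difference (adjusted p = 0.47) was called.

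Ifitm1, an interferon-induced membrane protein that restricts viruses, read 186, 170 and 179 untreated and 1282, 1440.2 and 2041 treated. Both groups were tight and well apart, and treated replicate 1 was the lowest treated array. The rise was 8.1-fold (log2 change 3.02 ± 0.39, adjusted p = 0.00231; without replicate 1 3.16, adjusted p = 0.000984). In WT DCs the log2 change was 2.69, and the 95% interval of the aly minus WT difference ran from -0.85 to 1.51 (-0.67 to 1.60 without replicate 1).

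Cnn3, which encodes the actin-binding protein calponin 3, read 66.4, 102 and 168 untreated and 7044, 3277 and 1726 treated. Every treated array was at least an order of magnitude above every untreated one. It rose 28.2-fold (log2 change 4.82 ± 0.53, adjusted p = 0.00057), or 19.7-fold without replicate 1 (adjusted p = 0.000316), and its 5 other probe sets gave log2 changes of 0.92 to 3.54. 1700011B04Rik, an uncharacterised transcript, read 1.4, 15 and 2.4 untreated and 1163, 596 and 915 treated, against 1361, 1568 and 1379.7 in treated WT DCs. It went from near the bottom of the scale to a high level on every treated array, and its log2 change was 5.35 ± 0.38 (adjusted p = 3.38e-06; without replicate 1 5.13, adjusted p = 3.28e-06). The size rests on the offset: it was 7.41 with an offset of 1 and 3.72 with one of 64, called in each. The 95% interval of its aly minus WT difference was -1.75 to 0.55 (-1.89 to 0.26 without replicate 1).

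Abtb2, an ankyrin repeat and BTB domain protein, read 53.4, 28.2 and 34.4 untreated and 399, 459 and 366 treated. Dnah2, an axonemal dynein heavy chain, read 86.8, 71.3 and 55.9 and 553, 614 and 563. For both genes the 3 treated arrays, replicate 1 included, lay within a narrow band above the untreated ones. Abtb2 rose 7.87-fold (adjusted p = 0.00151, and 0.000904 without replicate 1) and Dnah2 rose 6.85-fold (adjusted p = 0.00256, and 0.00218 without replicate 1), log2 changes of 2.98 and 2.78 (2.99 and 2.81 without replicate 1). Other probe sets of these genes changed less, by 0.13 and 1.29 for Abtb2 and by 0.21 for Dnah2 on the log2 scale. 1110032F04Rik, also uncharacterised, read 22.4, 20.5 and 31.2 untreated and 178, 320 and 482 treated, lowest of the treated on replicate 1. It rose 7.89-fold (adjusted p = 0.00231), and 10.1-fold without replicate 1 (adjusted p = 0.000165); the log2 change of 2.98 stood against 0.66 on its other probe set.

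**Figure D2:**
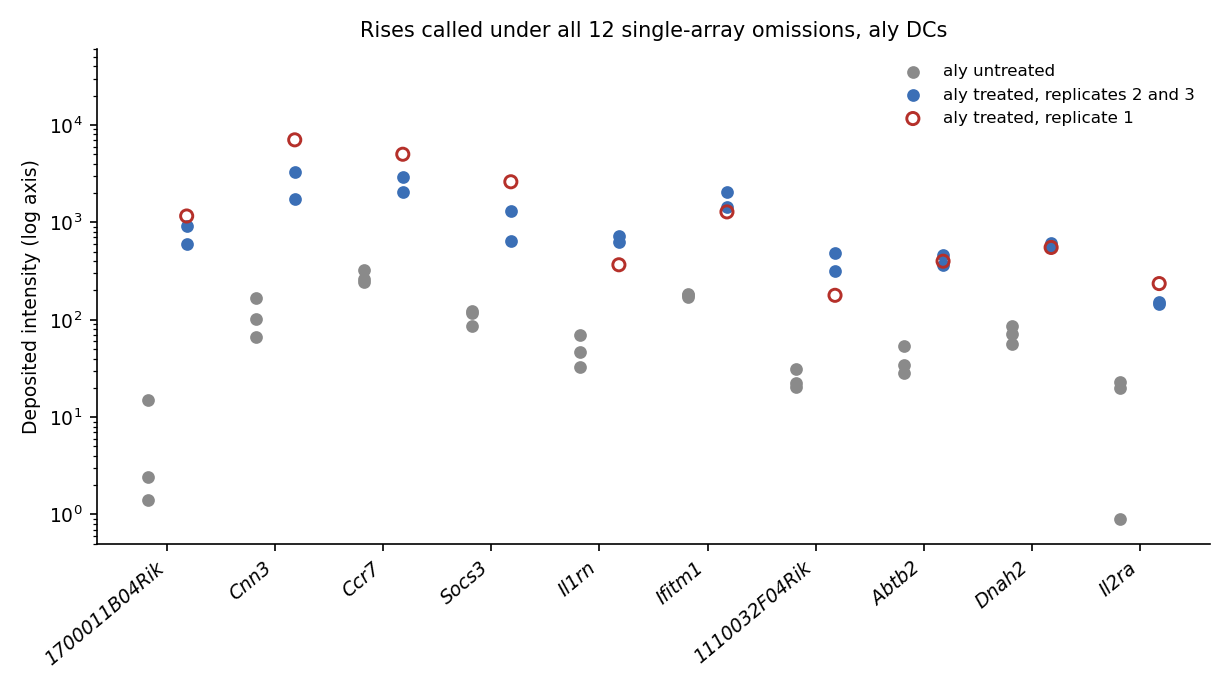
Intensity (y axis, log scale) on each aly array for the 10 genes called higher in treated aly DCs whichever array was omitted. The genes stand along the x axis, with treated aly replicate 1 as an open symbol. For each gene the 3 treated aly points lie above the 3 untreated aly points.

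The remaining 39 rises lost their call when at least 1 array was left out, most often an untreated aly array. Of the 49 calls, 32 were lost without aly untreated replicate 1, 32 without replicate 2 and 36 without replicate 3, against 12, 3 and 10 for the WT untreated replicates, 4, 7 and 7 for the WT treated replicates, and 9 and 7 for aly treated replicates 2 and 3. The direction of the change is given below with the array that ended the call.

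Interferon-stimulated and antiviral genes made up 6 of the 49 rises: Oasl1, Oasl2, Ifit1, Herc6, Helz2 and Ifitm1. Their median log2 change was 2.75 in aly, 2.40 without replicate 1 and 3.84 in WT. Oasl1, an oligoadenylate synthetase-like protein, read 94.7, 49.2 and 15.8 untreated and 1787, 276 and 777 treated. Every treated aly array was above the untreated ones and below the 3588, 4152 and 5045 of treated WT DCs. It rose 12.2-fold (log2 change 3.61 ± 0.56, adjusted p = 0.00866; without replicate 1 2.97, adjusted p = 0.0102), a call that ended without aly untreated replicate 3 (adjusted p = 0.066). The aly minus WT difference was -3.22 without replicate 1 (adjusted p = 0.032) and -2.58 with all arrays (adjusted p = 0.343). Ifit1, an interferon-induced protein that binds foreign RNA, went from 221, 65.6 and 178 to 2072, 649 and 1061. The treated arrays all lay above the untreated ones. It rose 7.36-fold (log2 change 2.88 ± 0.50, adjusted p = 0.0176; without replicate 1 2.45, adjusted p = 0.0295), a call lost without aly untreated replicate 2 (adjusted p = 0.099) or 3 (adjusted p = 0.066). Log2 changes were 2.44 for Oasl2 (2.35 without replicate 1), 2.21 for Herc6, an interferon-induced ubiquitin ligase (2.16), and 2.63 for the helicase Helz2 (2.11), each called both ways and each lost without at least 1 untreated aly array (highest adjusted p 0.14, 0.11 and 0.15).

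Chemokines and a chemokine receptor gave 3 of the rises, Ccr7, Cxcl10 and Ccl5. Cxcl10, an interferon-inducible chemokine for activated T cells, read 152, 82.3 and 90.4 untreated and 2679, 1115 and 437 treated, with replicate 3 the lowest of the treated arrays and still above the untreated ones. It rose 9.24-fold (log2 change 3.21 ± 0.52, adjusted p = 0.0139; without replicate 1 2.57, adjusted p = 0.0139), a call lost without aly untreated replicate 2 (adjusted p = 0.067) or 3 (adjusted p = 0.087). Treated WT DCs read 7331, 5532 and 7926, and the aly minus WT difference was -2.53 (adjusted p = 0.301), or -3.17 without replicate 1 (adjusted p = 0.0213). Ccl5, a chemokine for T cells and monocytes, read 2044, 1109.8 and 543 untreated and 14542, 5780.4 and 6646 treated. Its treated arrays were all above the untreated ones, which themselves spread widely. The rise of 7.57-fold (log2 change 2.92 ± 0.50, adjusted p = 0.0176; without replicate 1 2.51, adjusted p = 0.0288) lost its call without aly untreated replicate 2 (adjusted p = 0.067) or 3 (adjusted p = 0.099). The log2 change of Ccl5 in WT was 3.24, and the 95% interval of the difference was -1.82 to 1.17 (-2.09 to 0.62 without replicate 1).

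Genes of cytokine control and cytokine receptors were 4 (Il1rn, Socs3, Socs2 and Il2ra), with a median log2 change of 2.93 in aly, 2.73 without replicate 1 and 5.20 in WT. Socs2, a feedback inhibitor like Socs3, read 373, 218 and 149 untreated and 3688, 1047 and 756 treated, highest on replicate 1. The other treated arrays were also above all untreated ones. Its log2 change was 2.56 ± 0.51 (adjusted p = 0.0337), or 1.88 without replicate 1 (adjusted p = 0.0466), and the call was lost under 7 of the 12 omissions (highest adjusted p 0.20, without aly untreated replicate 3).

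Acute phase and stress genes were 4: Saa3, Mt2, Gadd45b and Gstt1. Saa3, an acute phase protein of the serum amyloid A family, read 106, 140.3 and 214 untreated and 18318, 3801 and 2112 treated. Replicate 1 read far above replicates 2 and 3, which still lay above the untreated arrays. It rose 32.4-fold (log2 change 5.02 ± 0.83, adjusted p = 0.0155) and 17.4-fold without replicate 1 (adjusted p = 0.0255), a call lost without aly untreated replicate 1, 2 or 3 (adjusted p = 0.079, 0.067 and 0.066). WT DCs read 23.7, 23.5 and 18.4 untreated and 2876, 691 and 140.3 treated. The untreated WT arrays were all below the untreated aly arrays, and the treated groups overlapped. Mt2, a metal-binding metallothionein, went from 88.3, 39.5 and 55.1 to 5558, 382 and 533. Here too replicate 1 stood far above the other treated arrays. The log2 change of 3.84 (adjusted p = 0.0314) became 2.65 without replicate 1 (adjusted p = 0.0188), and the call was lost under 6 omissions (highest adjusted p 0.15, without aly untreated replicate 3). Gadd45b, a stress-induced regulator of kinase signalling, had a log2 change of 2.39 (without replicate 1 1.89), and Gstt1, a glutathione transferase, one of 1.88 (without replicate 1 1.85). Both lost the call without any 1 untreated aly array, Gstt1 also without other arrays (highest adjusted p 0.12 and 0.14).

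Genes of lipid, retinoid and sphingolipid metabolism were 4, with a median log2 change of 2.75 in aly, 2.88 without replicate 1 and 4.50 in WT. Aldh1a2, which makes retinoic acid, read 92, 170.5 and 93.5 untreated and 421, 2784 and 4034 treated. Treated replicate 1 was the lowest treated array by far, and replicates 2 and 3 lay within the range of treated WT DCs, which read 5334, 2623 and 3725. The log2 change was 3.71 ± 0.63 (adjusted p = 0.0176) and 4.69 without replicate 1 (adjusted p = 2.19e-05), against 5.02 in WT, and the call was lost without aly untreated replicate 1 (adjusted p = 0.084) or 3 (adjusted p = 0.099). Sphk1, the kinase that makes sphingosine-1-phosphate, read 41.3, 36.9 and 78.5 untreated and 586, 409.7 and 345 treated, all below the 3107, 1107 and 1425 of treated WT DCs. Its log2 change was 2.78 in aly (2.57 without replicate 1) and 6.10 in WT, a difference of -3.32 (adjusted p = 0.0513), or -3.53 without replicate 1 (adjusted p = 0.0175). Untreated WT DCs read 6.8, 1.2 and 23.8, mostly below the offset, and the difference moved to -4.70 with an offset of 1 and to -2.45 with one of 64. The aly call was lost without aly untreated replicate 1 or 2 (adjusted p = 0.067 each). Fabp5, a fatty acid carrier, read 3633, 2881 and 3157 untreated and 37542, 11386 and 12621 treated. Treated replicate 1 read well above the other treated arrays. Fabp5 rose 5.44-fold (adjusted p = 0.0177), or 3.72-fold without replicate 1 (adjusted p = 0.0157), a call lost without any 1 untreated aly array (adjusted p = 0.067, 0.090 and 0.092). Slc27a3, of the fatty acid transport protein family, had a log2 change of 2.73 (without replicate 1 3.19), lost likewise (highest adjusted p 0.084).

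Receptors and secreted signals were 6. Ramp3, which escorts receptors of the calcitonin family to the cell surface, read 4.8, 25.6 and 28.6 untreated and 671, 796 and 134 treated. Its lowest treated array was replicate 3, above all untreated arrays. The log2 change was 3.69 ± 0.56 (adjusted p = 0.00793; without replicate 1 3.37, adjusted p = 0.0154) against 6.70 in WT, whose untreated arrays read 5.1, 1.3 and 13.2, and the call was lost without aly untreated replicate 1 (adjusted p = 0.062). Ptger4, the prostaglandin E2 receptor EP4, read 763, 989 and 1103 untreated and 3272, 3266 and 4546 treated, with treated arrays close together. It rose 3.83-fold (adjusted p = 0.0177), and 4.04-fold without replicate 1 (adjusted p = 0.0139), a call lost without any 1 untreated aly array (highest adjusted p 0.099). Log2 changes were 2.63 for the adhesion receptor Adgrg6 (2.27 without replicate 1), 2.74 for the orphan receptor Gpr85 (2.42) and 2.53 for Fgfbp3, which binds fibroblast growth factors (2.80). Secretin (Sct) read 6.4, 4.6 and 12.2 untreated and 656, 94.7 and 88.1 treated, highest on replicate 1, and its log2 change of 3.07 became 2.19 without that array (8.41-fold and 4.56-fold). Each of the 4 was called both ways and lost without aly untreated replicate 3 (adjusted p = 0.056, 0.15, 0.090 and 0.10 in the order given), all but Adgrg6 also without other arrays.

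Cytoskeletal, membrane and adhesion genes were 7, with a median log2 change of 2.44 in aly, 2.18 without replicate 1 and 3.59 in WT. Beside Cnn3 and Dnah2 they were the proteoglycan Sdc4 (3.48, and 2.88 without replicate 1), Lad1 (2.44 and 2.15), Plekhg2 (2.01 and 2.18), Anxa2, a membrane-binding annexin (1.82 and 1.68), and Stx11, a syntaxin of vesicle fusion (1.76 and 1.83), all log2 changes. These 5 lost the call without aly untreated replicate 3 (adjusted p = 0.13, 0.088, 0.21, 0.090 and 0.17), and all but Lad1 also without other arrays.

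Transcription, chromatin and cell cycle genes were 7, with a median log2 change of 2.20, 1.89 without replicate 1 and 3.34 in WT. Nfil3, a basic leucine zipper repressor needed for the development of the cDC1 subset of DCs, read 15.6, 22.4 and 51.2 untreated and 269, 543 and 119.6 treated. The treated arrays were all above the untreated ones, lowest on replicate 3. Its log2 change was 2.68 (adjusted p = 0.0232) and 2.67 without replicate 1 (adjusted p = 0.0306), lost without any 1 untreated aly array or treated replicate 2 (highest adjusted p 0.13). Cdkn2b, an inhibitor of cyclin-dependent kinases, read 129, 119.5 and 83.2 untreated and 1167, 738 and 488 treated, against 3009, 4073 and 3363 in treated WT DCs. The log2 change of 2.62 in aly (2.30 without replicate 1) stood against 5.01 in WT, a difference of -2.39 (adjusted p = 0.245; -2.70, adjusted p = 0.0444, without replicate 1), and its aly call was lost without any 1 untreated aly array (highest adjusted p 0.099). Ikzf4, Jdp2, Pogk, Mllt6 and Pcgf5 had log2 changes of 2.45, 2.20, 2.06, 1.88 and 1.72 (2.60, 1.73, 1.67, 1.89 and 1.76 without replicate 1). Each lost its call without any 1 untreated aly array, and all but Jdp2 also without other arrays (highest adjusted p 0.21). The last 5 of the 49 were Pcp4, Car13, Mreg, Scpep1 and 5430437J10Rik. Pcp4, a regulator of calmodulin, read 13, 27.5 and 31.4 untreated and 956, 126 and 222 treated, and its rise of 8.2-fold (log2 change 3.04) became 4.71-fold (2.24) without replicate 1. Car13, Mreg, Scpep1 and 5430437J10Rik had log2 changes of 2.53, 2.16, 1.82 and 1.63 (2.05, 2.19, 1.98 and 1.60 without replicate 1). Mreg (melanoregulin, of vesicle transport) and Scpep1 (a serine carboxypeptidase) had higher estimates in aly than in WT (1.34 and 1.48). The calls of these 5 were lost without aly untreated replicate 1 or 3, and all but that of Mreg also without at least 1 other array (highest adjusted p 0.21).

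RefSeq promoter windows (build GRCm38.p6) were found for 42 of the 49 genes, 53 windows in all, and were searched on both strands over the 250 bases before the start. The letters searched were GAAA, any 2 bases and GAAA, the core of an interferon response element; GGG, any 2 bases and TTTCC or TTCCC, forms of a kappaB site; and TTC, any 3 bases and GAA, the form of a STAT site. The first was found in 4 of 53 windows, or 7.55% (exact 95% interval 2.09% to 18.2%), against 2.64% of the 15205 windows of tested genes and 2.98% of all 32851 windows of the table. The kappaB letters were found in 3 windows, or 5.66% (1.18% to 15.7%), against 3.33% and 2.82%, and the STAT letters in 4 windows, or 7.55%, against 6.07% and 7.02%. Each interval holds both of the shares it is set against. The intervals treat the windows as independent, although the 53 windows come from 42 genes. For Sphk1 the STAT letters were counted in overlapping windows that hold the same site. Gstt1 also held the first letters and Il1rn the kappaB letters. Among the interferon-stimulated rises, the windows of Oasl1, Oasl2, Herc6, Helz2 and Ifitm1 did not hold the first letters. Shown here are 4 genes described above whose windows hold the first letters (Ifit1 on the reverse strand, Cxcl10, Saa3) or the kappaB letters (Cxcl10, and Il2ra on the reverse strand), with the matches in capitals. Each is read 5' to 3' on the gene's strand and ends at the base before its start.
Ifit1 (chr19:34640639-34640888, plus strand): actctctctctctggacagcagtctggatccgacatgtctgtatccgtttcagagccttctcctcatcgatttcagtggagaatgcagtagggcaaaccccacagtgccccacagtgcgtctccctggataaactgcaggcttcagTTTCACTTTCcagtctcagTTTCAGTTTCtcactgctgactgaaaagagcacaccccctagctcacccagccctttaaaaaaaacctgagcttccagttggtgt
Cxcl10 (chr5:92348890-92349139, minus strand): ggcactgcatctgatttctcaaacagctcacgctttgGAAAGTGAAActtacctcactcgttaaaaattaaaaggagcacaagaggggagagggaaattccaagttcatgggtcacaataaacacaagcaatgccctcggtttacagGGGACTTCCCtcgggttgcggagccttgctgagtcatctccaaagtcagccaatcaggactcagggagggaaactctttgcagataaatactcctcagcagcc
Saa3 (chr7:46715677-46715926, minus strand): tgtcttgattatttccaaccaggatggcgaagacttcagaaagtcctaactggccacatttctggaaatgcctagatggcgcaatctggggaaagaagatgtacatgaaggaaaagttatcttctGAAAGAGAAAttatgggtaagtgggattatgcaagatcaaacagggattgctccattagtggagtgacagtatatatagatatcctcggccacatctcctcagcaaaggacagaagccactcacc
Il2ra (chr2:11642542-11642791, plus strand): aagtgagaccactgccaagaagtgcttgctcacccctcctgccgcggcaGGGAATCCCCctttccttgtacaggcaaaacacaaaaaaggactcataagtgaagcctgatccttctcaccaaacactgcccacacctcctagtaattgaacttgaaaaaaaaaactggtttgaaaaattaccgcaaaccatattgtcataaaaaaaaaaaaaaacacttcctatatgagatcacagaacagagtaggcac
A match is a description of letters and not of binding. The aly minus WT differences of the 4 genes had 95% intervals of -3.55 to -0.57 for Ifit1, -4.10 to -0.97 for Cxcl10, -1.66 to 3.34 for Saa3 and -4.40 to -2.05 for Il2ra (-3.83 to -1.16, -4.40 to -1.95, -2.21 to 2.10 and -4.54 to -2.32 without replicate 1).

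Calls that depended on treated replicate 1 were 19 rises and all 5 falls. The 19 had adjusted p from 0.0503 to 0.113 without that array, which was the highest treated array for 14 of them. Among them, Gng4, a G protein gamma subunit, moved from a log2 change of 3.61 to 2.59 (adjusted p = 0.0758), and Traf1, an adaptor of tumour necrosis factor receptors, from 2.15 to 1.63 (adjusted p = 0.0938). Irf7, the interferon regulatory factor that amplifies type I interferon, moved from 1.95 to 1.84 (adjusted p = 0.0772), and Oas2, an oligoadenylate synthetase, stayed at 1.92 with an adjusted p of 0.0572. For Irf7 and Oas2 the estimate thus hardly moved while the call was lost. The rest were Mmp13, Ms4a6d, Foxp4, Cdkn1a, Grasp, Apod, Glipr2, Ndrg1, Sema7a, Bcl2l14, Vdr, Spsb1, Fas, Ccnd2 and Ktn1. In the other direction, 6 genes were called only without replicate 1, and that array was the lowest treated array in all 6. Il7r, the interleukin-7 receptor, read 104, 203 and 188 untreated and 318, 776 and 814 treated, and Pfkfb3, a regulator of glycolysis, read 304, 389 and 330.4 and 427, 1321 and 1655. In both, replicates 2 and 3 lay far above the untreated arrays and replicate 1 much nearer to them. The log2 changes without replicate 1 were 2.21 (adjusted p = 0.0288; 1.78 with all arrays) and 2.07 (adjusted p = 0.00907; 1.49 with all arrays). The others were Adcy6, Enah, Dock9 and P2ry10 (log2 changes of 2.42, 2.22, 1.94 and 1.91).

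The 5 falls were Ramp1, Hepacam2, Homer2, Lpcat2 and Nek6. Ramp1, a partner of the receptor for calcitonin gene-related peptide, read 551, 387 and 418 untreated and 30.7, 133 and 51.2 treated. All treated arrays were below all untreated arrays, an arrangement that 1286 of all genes (8.56%) showed with all arrays and 2182 (14.5%) without replicate 1. Its log2 change was -2.58 (adjusted p = 0.0334) and -2.21 without replicate 1 (adjusted p = 0.0772), against -2.35 in WT. Hepacam2, an adhesion molecule, had a log2 change of -2.51 and -2.31 without replicate 1; Homer2, a scaffold protein whose other probe sets ranged from -1.46 to 1.04, -2.49 and -2.38; Lpcat2, a lysophospholipid acyltransferase, -2.16 and -1.86; and Nek6, a mitotic kinase, -1.73 and -1.64. The count of 5 falls was 0 without replicate 1, 22 without treated replicate 2, 0 without any 1 of the untreated aly arrays or WT treated replicate 3, 1 without WT untreated replicate 1 or 3 and 3 without WT untreated replicate 2.

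In the NF-kB pathways the aly changes were mostly positive and mostly uncalled. Over all 15019 genes 0.453% were called higher in aly, 0.366% without replicate 1 and 4.95% in WT. At an unadjusted p under 0.05 in limma, 835 of all genes were higher in aly, and 571 without replicate 1. Of 11 measured genes of the non-canonical pathway, 1 was called higher with all arrays (Traf1) and 0 without replicate 1 in limma (6 and 7 higher at an unadjusted p under 0.05), against 7 in WT. The median log2 change was 0.98, 1.15 without replicate 1 and 1.92 in WT. Map3k14 itself, the mutated gene, read 225, 155 and 121 untreated and 81.8, 261 and 546 treated, lowest on treated replicate 1 and highest on treated replicate 3, with overlap between the groups. Its log2 change was 0.48 (adjusted p = 0.697) and 1.15 without replicate 1 (adjusted p = 0.353); the transcript level does not check a mutation of the protein. Nfkb2, which encodes p100, read 558, 379.9 and 165 untreated and 2239.6, 1017 and 776 treated. Its treated arrays lay above its untreated arrays, but the untreated arrays spread widely. The log2 change was 1.83 (adjusted p = 0.144) and 1.39 without replicate 1 (adjusted p = 0.314), against 3.39 in WT. Relb read 1204, 709.5 and 369 untreated and 1085, 1117 and 2083 treated, with overlapping groups, and had a log2 change of 0.98 (adjusted p = 0.373; 1.14 without replicate 1) against 2.62 in WT. Of 14 genes of the canonical pathway, 0 were called in aly with all arrays or without replicate 1 in limma (4 and 3 higher at an unadjusted p under 0.05), against 7 in WT, and the median log2 change was 0.64, 0.48 without replicate 1 and 1.45 in WT. Among them Ikbke, a kinase related to the IKK complex, had a log2 change of 2.23 (adjusted p = 0.0575; 1.90 without replicate 1, adjusted p = 0.13).

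Of 24 measured genes of DC maturation, 2 rose in aly with all arrays and 2 without replicate 1, against 20 in WT. The 2 genes were Ccr7 and Socs2 both ways, where 0.453% and 0.366% of all genes rose. For 13 of the 24 all treated aly arrays lay above the untreated ones, and for 14 without replicate 1. Over all genes 6.02% and 9.25% had that arrangement. The list's median log2 change was 1.04, 1.00 without replicate 1 and 2.67 in WT. The test of the difference called a lower response in aly for 3 of the 24 (Cd80, Il15ra and Ccl22) and for 9 without replicate 1. Cd40, the receptor that the antibody engages, read 935, 1200 and 980.4 untreated and 12520.2, 2924 and 2492 treated. Treated replicate 1 was several times above the other treated arrays, which were above the untreated ones. In aly the log2 change was 2.11 (adjusted p = 0.0868) and 1.37 without replicate 1 (adjusted p = 0.131), against 3.58 in WT. Cd86, a costimulatory ligand of CD28, read 1611, 1397 and 2109.7 untreated and 1116, 1813 and 2044 treated, and Cd83, a maturation marker, read 3329.9, 3357 and 5790.3 and 5843, 4937 and 5286. Their groups overlapped, and their log2 changes were -0.07 and 0.41 (0.19 and 0.35 without replicate 1), against 1.73 and 1.72 in WT. The aly minus WT difference was -1.80 for Cd86 (adjusted p = 0.348; -1.54, adjusted p = 0.187, without replicate 1) and -1.31 for Cd83 (adjusted p = 0.478; -1.37, adjusted p = 0.189, without replicate 1). Pdcd1lg2, a ligand of the inhibitory receptor PD-1, read 97.2, 62.4 and 118 untreated and 594, 214 and 392 treated, without overlap. Its log2 change of 1.86 (adjusted p = 0.0611; 1.53 without replicate 1, adjusted p = 0.13) stood beside 1.55 in WT, with a 95% interval of the difference of -0.92 to 1.55 (-1.12 to 1.09 without replicate 1).

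Interferon-stimulated genes had the highest median among the lists of pathway genes with all arrays. Without replicate 1 the non-canonical NF-kB list was level with or slightly above them (1.147 against 1.141). Of 36 measured, 6 rose with all arrays and 4 without replicate 1, against 31 in WT. The shares of all genes that rose were 0.453%, 0.366% and 4.95% in the same order. All treated aly arrays lay above the untreated ones for 25 of the 36, and for 26 without replicate 1, against 6.02% and 9.25% of all genes. A change above 0 was seen in 34 (36 without replicate 1), against 6756 (6185) of all 15019 genes. The median log2 change was 1.48, 1.14 without replicate 1 and 3.22 in WT. The summed intensity of the list was 23759 to 27954 on untreated aly arrays, 208771 on treated replicate 1, 49392 to 61556 on treated replicates 2 and 3 and 146878 to 196229 on treated WT arrays. So replicates 2 and 3 lay between the untreated arrays and treated WT, and replicate 1 above all of them. Within the arrays numbered replicate 1 (treated minus untreated) the list's median change was 1.88, and within replicates 2 and 3 it was 1.24.

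Among 18 chemokines, 2 rose in aly with and without replicate 1 (Cxcl10 and Ccl5), against 8 in WT, and the median log2 change was 0.99, 0.49 without replicate 1 and 1.52 in WT. For this list and those that follow, the shares of all genes that rose were 0.453% in aly, 0.366% without replicate 1 and 4.95% in WT. Among 17 cytokines and related genes, 1 rose with and without replicate 1 (Il1rn), against 5 in WT, and the median was 0.50, 0.23 and 0.61. Ifng, which encodes interferon gamma, read 5.3, 0.8 and 39 untreated and 1286, 149 and 179.7 treated. For Ifng the log2 change was 3.69 (adjusted p = 0.0514) and 2.74 without replicate 1 (adjusted p = 0.126), against 6.51 in WT. The summed intensity of 11 natural killer cell markers, cells that also make interferon gamma, was 1272 to 2071 on untreated aly arrays, 1299.6 on treated replicate 1 and 1177 to 2416.5 on treated replicates 2 and 3. Marker by marker, 8 of the 11 were highest of the treated arrays on replicate 1, and the list's median change was 1.05 within the arrays of replicate 1 and -0.0020 within replicates 2 and 3. The median over all probe sets was also highest on treated replicate 1 (53.4, against 23.3 and 26.7 on treated replicates 2 and 3). How many of all genes were highest there was not counted. The part of natural killer cells in the Ifng values was not tested. Il6, an inflammatory cytokine, had a log2 change of 1.33 (adjusted p = 0.205; 0.94 without replicate 1) against 3.54 in WT. For Il12b, the shared subunit of interleukins 12 and 23, the changes were -0.16 in aly (-0.16 without replicate 1) and 0.15 in WT. Among 20 genes of negative feedback, 3 rose with and without replicate 1 (Socs3, Socs2 and Il1rn), against 12 in WT, with a median of 0.78, 0.79 and 2.09. Among 18 genes of apoptosis and survival 2 rose, and 1 without replicate 1 (Gadd45b), against 7 in WT, with a median of 0.46, 0.41 and 1.02.

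No gene of the MHC class I, MHC class II or cDC1 lists was called in aly in limma. At an unadjusted p under 0.05, 835 of all 15019 genes were higher in aly and 1100 lower, and 571 and 634 without replicate 1. In WT 4.95% of all genes were called higher and 4.75% lower. Of 15 genes of MHC class I presentation 0 were called with or without replicate 1 (at an unadjusted p under 0.05, 1 higher and 1 lower, and 0 and 1), against 5 risen in WT, and the median log2 change was -0.02, -0.01 without replicate 1 and 0.79 in WT. Nlrc5, the activator of MHC class I genes, had a log2 change of 0.74 (0.82 without replicate 1) against 2.98 in WT. Of 13 genes of MHC class II presentation 0 were called (5 lower at an unadjusted p under 0.05, and 3 without replicate 1), against 6 fallen and 1 risen in WT, with a median of -0.38, -0.52 and -0.72. Of 14 markers of the cDC1 subset, DCs specialised in presenting to CD8 T cells, 0 were called in aly (6 lower and 2 higher at an unadjusted p under 0.05, and 3 and 2 without replicate 1). For 9 of them all treated arrays lay below all untreated arrays, with and without replicate 1, as for 8.56% and 14.5% of all genes. In WT 9 fell and 1 rose. The median log2 change was -1.45, -0.66 without replicate 1 and -2.76 in WT. Cd8a, a surface marker of the subset, read 1838, 2044 and 1639 untreated and 171, 866 and 612 treated. All treated arrays were below the untreated ones, replicate 1 by far the most. The log2 change of Cd8a was -1.98 (adjusted p = 0.116) and -1.31 without replicate 1 (adjusted p = 0.222), against -2.91 in WT. Because these are sorted bulk samples, fewer cells of a subset and less RNA per cell cannot be told apart. The 23 cell cycle genes had a median of -0.49, -0.16 without replicate 1 and -1.15 in WT, with 0 calls in aly (4 lower at an unadjusted p under 0.05, and 0 without replicate 1) and 7 falls in WT. Median centring without replicate 1, tried after seeing the data, moved the median of all genes from -0.10 to 0.08, and with it turned that of the MHC class I list to 0.17 and that of the cell cycle list to 0.03.

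Treated replicate 1 moved some of these lists more than others. The median of the 9 neutrophil markers was 1.16 with all arrays, 0.05 without replicate 1 and 0.51 in WT, and within the arrays of replicate 1 it was 3.80 against -0.21 within replicates 2 and 3. For the 10 pan-DC markers the medians were -2.32 within replicate 1 and -0.20 within replicates 2 and 3, and for the cDC1 markers -2.59 and -0.78. The chemokine list gave 1.61 and 0.43 and the cytokine list 1.39 and -0.03, whereas the non-canonical list gave 0.76 and 1.30. Of 25 genes of migration and cytoskeleton 2 rose with and without replicate 1 (Ccr7 and Cnn3), against 9 in WT. Of 28 transcription factors of activated cells 2 rose (Irf7 and Nfil3), and 1 without replicate 1 (Nfil3), against 16 in WT. The shares of all genes that rose were 0.453% in aly, 0.366% without replicate 1 and 4.95% in WT.

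Further lists held 1 call each or none. Of 9 plasmacytoid DC markers, the DCs known for making type I interferon, 1 rose with all arrays (Irf7) and 0 without replicate 1 in limma (3 higher and 1 lower at an unadjusted p under 0.05, and 2 and 0), against 4 in WT, and the median was 0.31, 0.28 without replicate 1 and 0.33 in WT. Of 15 glycolysis genes 0 rose with all arrays and 1 without replicate 1 (Pfkfb3; 3 higher at an unadjusted p under 0.05 both ways), against 2 in WT, with a median of 0.29, 0.20 and -0.14. Of 15 antigen uptake receptors, which bind material that DCs take in, 0 were called (2 higher and 5 lower at an unadjusted p under 0.05, and 1 and 3 without replicate 1), with a median of -0.81 in aly, -0.88 without replicate 1 and -0.12 in WT. In WT 2 of them rose and 3 fell. In limma 0 genes were called in aly with or without replicate 1 for toll-like receptor signalling (1 higher and 5 lower of 20 at an unadjusted p under 0.05, and 1 and 1), immediate early genes (2 and 2 of 17, and 1 and 1), cDC2 markers (1 and 1 of 14, and 0 and 2) and pan-DC markers (0 and 2 of 10, and 0 and 0). The same held for the markers of red pulp macrophages, erythroid cells, neutrophils, monocytes, B cells, T cells and natural killer cells. Of these 67 markers 4 were higher and 8 lower at an unadjusted p under 0.05, and 3 and 2 without replicate 1. Over all 15019 genes 835 were higher and 1100 lower at that threshold, and 571 and 634 without replicate 1. Among the 67 markers the red pulp macrophage list had a median of -0.79, and -0.62 without replicate 1.

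**Figure D3:**
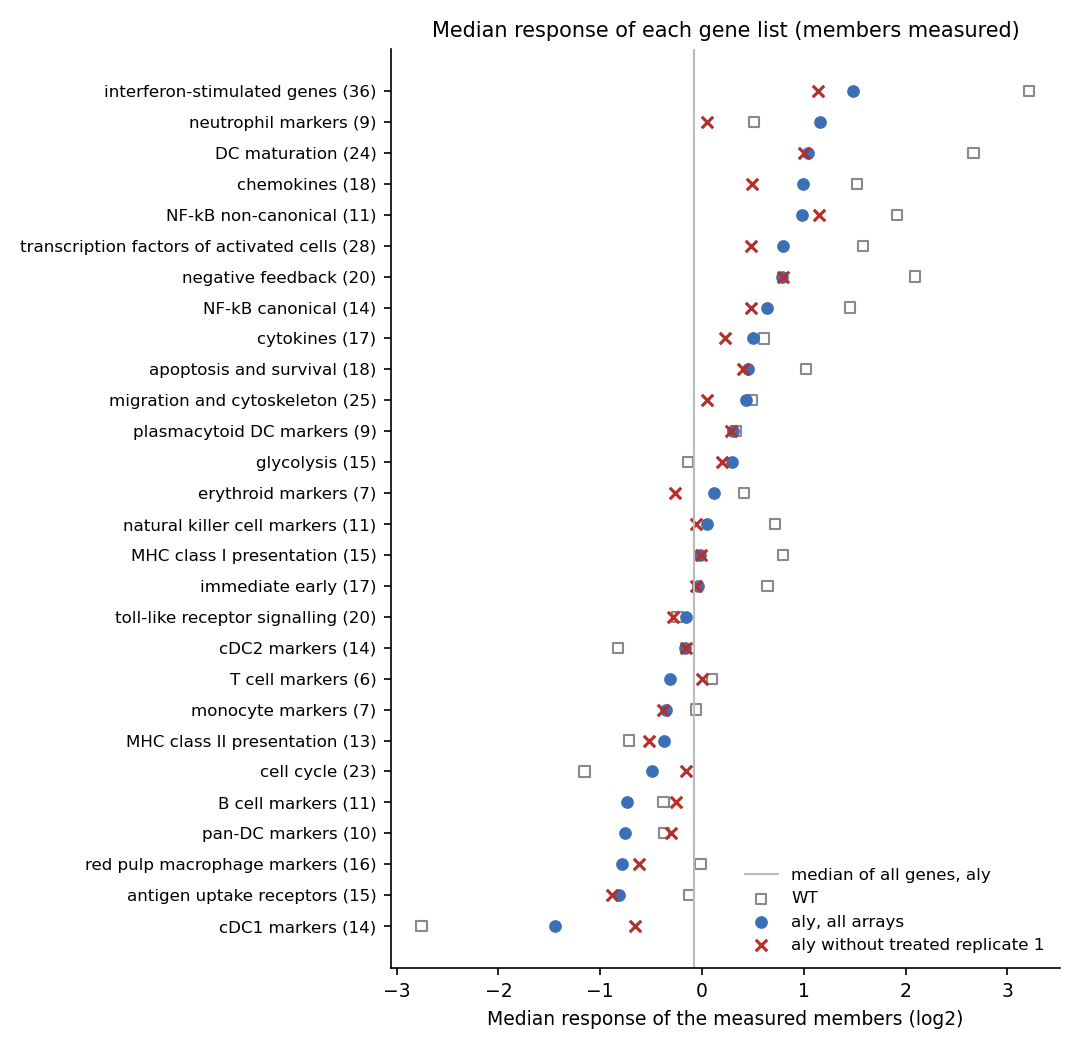
Median log2 change (treated minus untreated, x axis) of each gene list, 1 row per list with its number of measured genes, in aly DCs with all arrays, in aly DCs without treated replicate 1 and in WT DCs. The interferon-stimulated list lies at 1.48, 1.14 and 3.22 and the cDC1 list at -1.45, -0.66 and -2.76, while the median over all genes lies near 0 in each comparison.

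The aly response was then set against the WT response, to ask what differs when NIK is mutated. For 42 of the 49 rises the estimate was lower in aly than in WT (44 without replicate 1), and for 22 of the 49 all treated aly arrays lay below all treated WT arrays, as for 10.1% of all genes (31 of 49, against 15.2%, for treated replicates 2 and 3). The 95% interval of the difference held 0 for 31 of 49, and for 26 without replicate 1. Over all genes the test of the difference called 23 lower responses in aly (0.153%) and 0 higher (0%), with 667 lower and 537 higher at an unadjusted p under 0.05. Without replicate 1 it called 96 lower (0.639%), which include the same 23, and 17 higher (0.113%). Of the 49, 1 was called lower with all arrays and 9 without replicate 1. Among the 12 genes with the largest rises in WT (log2 changes of 5.69 to 6.70), 7 were called in aly with and without replicate 1, and the 12 aly changes ranged from 1.72 to 5.35; for 6 of the 12 the untreated WT mean lay under the offset. The median standard error of the difference was 0.61 on the log2 scale, against 0.43 for the aly response.

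**Figure D4:**
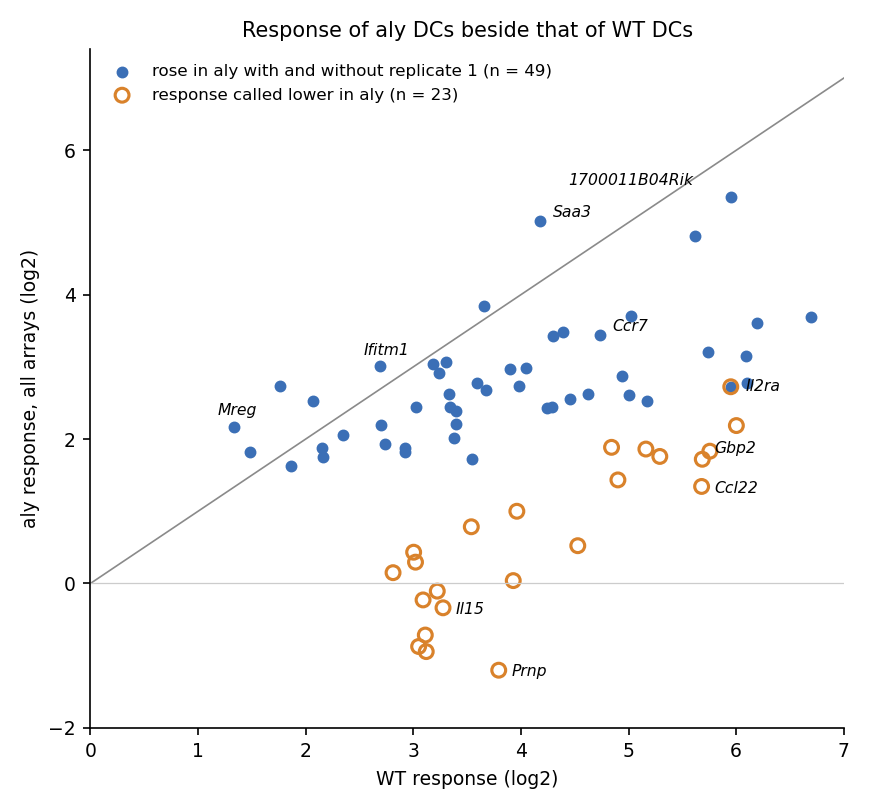
Log2 change in WT DCs (x axis) against log2 change in aly DCs (y axis), treated minus untreated, n = 3 arrays per group, 1 point per gene, with the genes called in aly and those called in the difference between genotypes coloured. Of the 49 rises 42 lie below the diagonal, and the 23 genes with a lower response lie at WT changes of 2.81 to 6.00 and aly changes of -1.20 to 2.72.

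All 23 genes with a lower response were called higher in WT, with a median log2 change of 3.93, against 0.52 in aly (0.63 without replicate 1). For 7 of them the aly estimate was below 0. Of the 23, 5 (Fas, Htra1, Il2ra, Myh10 and Slfn1) had an untreated WT mean under the offset, so the size of their difference depends on it. Prnp, the cellular prion protein, read 1081, 760.3 and 1457 in untreated and 323, 581 and 493 in treated aly DCs, and 492, 290 and 249 and 3769, 4846 and 5952 in WT. All treated aly arrays read below all untreated aly arrays, and all treated WT arrays read far above all untreated WT arrays. The difference was -5.00 ± 0.55 (95% interval -6.17 to -3.82, adjusted p = 0.00171; -4.76 without replicate 1), and it kept its call whichever array was omitted, as no other of the 23 did. The number of genes with a lower response was 96 without treated aly replicate 1, 10 without replicate 2 and 16 without replicate 3; 7, 9 and 7 without the untreated aly replicates; 8, 1 and 9 without the untreated and 7, 11 and 5 without the treated WT replicates.

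Interleukin-15 and its receptor were both among the 23. Il15, which sustains natural killer and memory CD8 T cells, read 138, 110.5 and 166 untreated and 77.8, 111 and 131 treated in aly, and 152, 74.9 and 92.8 and 1145, 1074 and 1178 in WT. The aly groups overlapped, and the treated WT arrays lay together far above. Its difference was -3.61 (95% interval -4.67 to -2.55, adjusted p = 0.0105; -3.43 without replicate 1), lost under 1 of 12 omissions (adjusted p = 0.0532). Il15ra, which presents interleukin-15 to other cells, read 31.2, 29.7 and 46.2 untreated and 9, 72.6 and 164 treated in aly, against 1081, 998 and 1269.5 in treated WT DCs, with the lowest treated aly value on replicate 1. Its difference was -4.01 (adjusted p = 0.0464; -3.23 without replicate 1), lost under 10 omissions (highest adjusted p 0.215).

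Chemokines and interferon-inducible genes were also among them. Ccl22, a chemokine that mature DCs use to attract T cells, read 731, 1086 and 502 untreated and 2349.6, 2462 and 1172 treated in aly, and 102, 78.2 and 82.7 and 6908, 2741 and 7749 in WT. Untreated aly DCs thus read several times above untreated WT DCs, and treated aly DCs below treated WT DCs. The difference was -4.34 (95% interval -5.69 to -2.98, adjusted p = 0.0108; -4.49 without replicate 1), lost under 2 omissions (highest adjusted p 0.0532). Gbp2, an interferon-induced GTPase, read 527, 354 and 967 untreated and 1955, 1373 and 2564 treated in aly, and 218, 206 and 227 and 11814, 11529 and 12588 in WT. All treated aly arrays were above the untreated ones, with an aly change of 1.72 (adjusted p = 0.0693; 1.70 without replicate 1) and a difference of -3.96 (adjusted p = 0.0105; -3.98 without replicate 1), lost under 1 omission (adjusted p = 0.0532). Cxcl11, like Cxcl10 a chemokine for activated T cells, read 19.5, 32.6 and 12 untreated and 102, 102 and 119 treated in aly against 1473, 1396 and 1155 in treated WT DCs. Its difference was -3.53 (adjusted p = 0.0173; -3.50 without replicate 1), lost under 6 omissions (highest adjusted p 0.0746).

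Costimulation and death receptors were represented by Cd80 and Fas. Cd80, the second ligand of CD28, read 67.2, 70.8 and 71.2 untreated and 179, 107 and 194 treated in aly, and 53.8, 111 and 122 and 1099, 1948 and 2086 in WT. Its treated aly arrays were all above the untreated ones and all below treated WT. The difference was -2.96 (adjusted p = 0.0464; -3.05, adjusted p = 0.0179, without replicate 1), lost under 11 omissions (highest adjusted p 0.216). Fas, a death receptor, had a log2 change of 1.89 in aly (adjusted p = 0.0417; 1.88, adjusted p = 0.062, without replicate 1) and 4.84 in WT, and a difference of -2.96 (adjusted p = 0.0464; -2.96 without replicate 1), lost under 11 omissions (highest adjusted p 0.216). Prdm1, which encodes the repressor Blimp-1, had an aly change of -0.87 (-0.15 without replicate 1) and a WT change of 3.05. Without replicate 1, Cd40 joined the genes with a lower response (-2.20, adjusted p = 0.0401; -1.47, adjusted p = 0.636, with all arrays), as did Sphk1, Oasl1, Cxcl10, Il1rn and Cdkn2b.

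**Figure D5:**
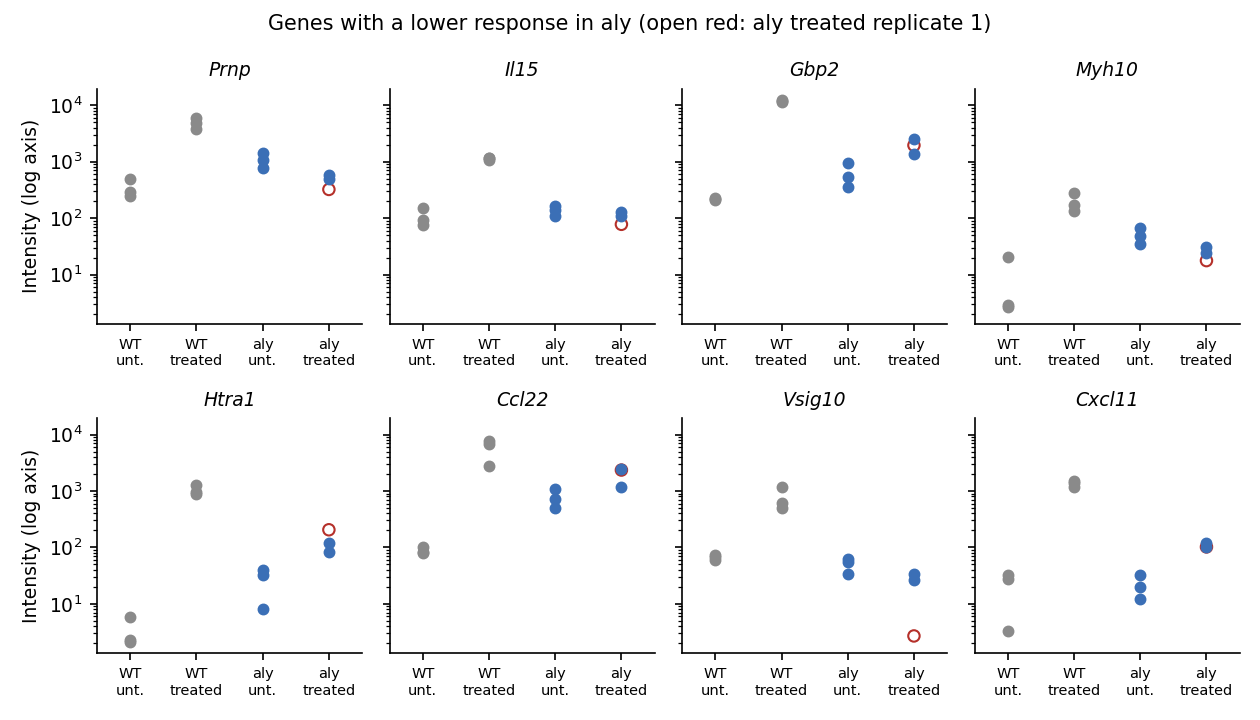
Intensity (y axis, log scale) on each array of the 4 groups for the 8 genes with the smallest adjusted p of the difference between the aly and the WT response, 1 panel per gene, with treated aly replicate 1 as an open symbol. In each panel the treated WT points lie above all treated aly points, and for Prnp the treated aly points lie below the untreated aly points.

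The 17 genes with a higher response in aly appeared only without replicate 1, which was the lowest treated aly array in all 17. Of them, 16 were called lower in WT (log2 changes of all 17 from -3.70 to -0.83), and 0 were called in aly in limma without replicate 1, where their changes ranged from -1.14 to 1.29. Pdk1, a kinase that limits entry of pyruvate into the citric acid cycle, read 388, 360.2 and 289 untreated and 66.7, 403 and 473 treated in aly, and 684, 387 and 468 and 69.1, 116 and 40.6 in WT. It read low on every treated WT array, and in aly only replicate 1 read low. The difference was 2.92 without replicate 1 (adjusted p = 0.019) and 2.10 with all arrays (adjusted p = 0.489). Mcm4, a subunit of the replicative helicase, read 842, 1057 and 562 untreated and 255, 1274 and 1245 treated in aly. Replicates 2 and 3 were above the untreated arrays and replicate 1 far below them. Its difference was 2.34 without replicate 1 (adjusted p = 0.0351) and 1.60 with all arrays (adjusted p = 0.61). Other genes of cell division among the 17 were Ccne2 (a cyclin), Ect2 (needed for cytokinesis) and Rad51ap1 (of DNA repair), with differences of 2.25, 2.22 and 2.03 without replicate 1 (adjusted p = 0.0444, 0.0347 and 0.0351), a grouping made after the values were seen.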

How the data were processed

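Expression was measured on Affymetrix whole-genome mouse arrays of sorted splenic DCs (12 arrays, 4 groups of 3). The values deposited by the authors are intensity values on a linear scale, 1 for each of 45101 probe sets; the 2% trimmed mean is 150.001 on every array, whereas the software is not given in the sources used here and the background correction is unknown. From these, log2(value + 16) was taken without further normalization. Probe sets with 1 gene symbol (34958; 932 carried several and 9211 none) were kept where 3 or more arrays read above their own 40th percentile, controls out, with the probe set of the highest mean for each gene (15019 genes). With R 4.3.3, data.table (version 1.17.8) and limma 3.58.1, 4 group means were fitted to all 12 arrays with moderated variances; fold changes come from the log2 changes, and p-values were Benjamini-Hochberg adjusted over all genes. Intervals are 95%. The number of arrays limits the precision.

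Genes were named by a rule: the 30 largest rises called with and without treated aly replicate 1 with a log2 change of 1 or more and non-overlapping arrays, every fall, up to 6 members of each list by smallest p, every gene called in the difference between genotypes, the 12 largest WT rises, and Map3k14, Nfkb2, Relb, Cd40, Cd80, Cd86, Cd83, Il12b, Ccr7, Actb and Gapdh; other called genes are named with their value. The genes, lists and tests were chosen with earlier results of these data known. Alternatives covered the offset, the filter, centring, quantile normalization, array weights, the probe sets, blocks and omitted arrays. Gapdh was not analysed here as a gene. The fits were tested on simulated data over all 15019 genes: the aly comparison called 0 of 50 genes with a true log2 change of 1, 28 of 50 at 2, 45 of 50 at 3 and 48 of 50 at 4, and without replicate 1 it called 0, 14, 42 and 47. Of 14819 genes with no true change it called 7, and 4 without replicate 1. Each gene had the same spread on every simulated array, so the low quality of treated aly replicate 1 was not reproduced. The simulated counts therefore cannot show what that array adds or takes away in the real data.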

Additional observations from a re-analysis of the deposited data

Results flagged for a closer look

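The response differed between aly and WT DCs, by limma's test of the difference itself, for 23 genes, all with the lower response in aly. Values are aly minus WT log2 responses, with n = 3 arrays in each of the 4 groups, followed in parentheses by the value without treated aly replicate 1. The differences were -5.00 (-4.76) for Prnp, -4.34 (-4.49) for Ccl22, -4.06 (-3.63) for Vsig10, -4.01 (-3.23) for Il15ra, -3.96 (-3.98) for Gbp2 and -3.92 (-4.24) for Htra1, a secreted serine protease. They were -3.92 (-3.20) for Prdm1, -3.89 (-3.41) for Pvr, the poliovirus receptor CD155, -3.83 (-3.71) for Myh10, a non-muscle myosin, -3.82 (-4.25) for the phospholipase Pla1a, -3.61 (-3.43) for Il15 and -3.53 (-3.50) for Cxcl11. They were -3.47 (-3.26) for the GTPase Rragd, -3.33 (-3.10) for Znfx1, -3.32 (-3.06) for Pml, a component of nuclear bodies, -3.30 (-3.10) for Slfn1, -3.23 (-3.43) for Il2ra and -2.96 (-3.05) for Cd80. For Fas the difference was -2.96 (-2.96), for Nudt17 -2.75 (-3.01), for Plscr1 -2.73 (-2.62), for Arhgap28 -2.66 (-2.71) and for Gucd1 -2.57 (-2.38). All 23 were also called without that array. The summed intensity of the red pulp macrophage markers was 47895 to 79466 on untreated aly arrays against 6449 to 23505 on untreated WT arrays, and its part in these differences was not tested.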

How the results depend on the processing

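With all arrays 68 genes rose, 5 fell, and 23 had a lower and 0 a higher response in aly than in WT. No named value changed direction while called under any setting tried. Rises numbered 11 with an offset of 1, 45 with median centring, 28 from replicates 2 and 3 alone, 6 from the aly arrays alone, 112 with the spike-in set as a block and 140 with array weights. Falls numbered 0, 0, 0, 0, 8 and 24 under those settings, 3 without a filter on low values and 1 with the mean of all probe sets. Lower responses numbered 1 with an offset of 1, 52 with 64, 12 without a filter, 8 with median centring, 9 with quantile normalization, 5 from replicates 2 and 3 alone and 257 with array weights. Higher responses numbered 3 with an offset of 64, 1 with a filter at the 60th percentile and 103 with array weights. Over the omissions of 1 array, rises ranged from 13 to 80, falls from 0 to 22, lower responses from 1 to 96 and higher responses from 0 to 17. The cause was not tested.

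The main fit did not pair the arrays by replicate number. Same-numbered deviations correlated at 0.127, 0.303 and 0.0510 in aly and at 0.284, 0.130 and 0.0546 in WT. Unlike-numbered ones correlated at -0.182 to 0.0391 in aly and at -0.211 to 0.0978 in WT. Each untreated array correlated best with the treated array of its own number, though not every such value passed 0.1. Whether the numbers mark a shared preparation was not tested. The spike-in set sets the replicate 1 arrays of all 4 groups, which were the lowest on the poly-A controls, against replicates 2 and 3. With the replicate number as a block, 85 genes rose, 6 fell and 30 had a lower response. Chosen after seeing the data, the block without treated aly replicate 1 gave 52 rises, 0 falls, 76 lower and 19 higher responses, and median centring without that array gave 76, 0, 45 and 17. For 4 of the 49 rises the untreated aly mean lies under the offset, and for 6 the untreated WT mean does. Low signal is not limited to these genes. On the untreated aly arrays 1110032F04Rik read 22.4, 20.5 and 31.2, below the array medians of 26.6, 26.6 and 39.1. How many other rises start this low was not counted. With an offset of 1, 11 of the 49 stayed called.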
